A study of Mus musculus with 12 samples.

Results

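Pdcd1, Lag3, Cd200, Cd160 and Lair1 encode surface proteins that take part in restraining immune cells. They were described here as 5 genes of the 10073 listed, chosen by name with earlier results of these data known. All 5 passed the filter on low values, a mean RPKM of 0.5 or more, and were among the 10021 genes tested. RPKM is a read count scaled by gene length and by library depth, so that levels can be set beside each other between genes. The libraries came from naive CD4 T cells of untreated mice in a study of tonic T cell receptor signalling and gene expression. Every mouse carried the Tg(Nr4a1-EGFP)GY139Gsat transgene, here called Nur77-GFP, in which Nr4a1 regulatory sequence drives GFP in whichever cells use it, and the Foxp3tm1Flv reporter allele, on a C57/BL6 background. Spleen and lymph node cells that were CD4 positive, Foxp3-RFP negative and CD44 low were sorted by flow cytometry into 4 populations from each of 3 mice, with no T cell receptor stimulus given. Population A was Nur77-GFP low and Ly6C positive. Population B was Nur77-GFP intermediate and Ly6C positive. Population C was Nur77-GFP intermediate and Ly6C negative. Population D was Nur77-GFP high and Ly6C negative. The age of the mice is not stated in the labels. GFP reports the activity of a transgene and is long lived compared with the RNA of Nr4a1, so it is an indirect reading of signal. A library is named by population and mouse, so that D2 is population D of mouse 2.

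Inhibitory receptors carry or recruit signals that oppose those of the T cell receptor. PD-1, the product of Pdcd1, binds the proteins of Cd274 and Pdcd1lg2 and recruits the phosphatase encoded by Ptpn11, while LAG-3, the product of Lag3, binds MHC class II molecules and is shed from the surface by ADAM proteases. Both are induced when T cells are stimulated through their receptor, and both are known from exhausted and tolerant T cells. CD200 differs from the others in that it is a ligand, whose receptor, encoded by Cd200r1, sits mainly on myeloid cells and some T cells. CD160 is an immunoglobulin-family protein, best known from cytotoxic lymphocytes, that binds the herpesvirus entry mediator encoded by Tnfrsf14. LAIR-1 is a collagen receptor of many leukocytes whose cytoplasmic tail recruits phosphatases.

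Libraries held between about 6310000 and 9070000 reads, as recovered from the values, and Cd4, which marks the lineage sorted, was between 223.5 and 249.5 RPKM in every library. Some libraries stood apart from others with the same label. Nr4a1 itself, the gene behind the GFP reporter, was 57.7 RPKM in A1 against 26.1 and 22.9 RPKM in A2 and A3. In B1 it was 36.0 RPKM, against 73.3 and 64.6 RPKM in B2 and B3. Ly6c1 did not set A1 apart, at 63.0 RPKM, between the 58.1 and 72.6 RPKM of A2 and A3. In B1 Ly6c1 was 50.2 RPKM, against 37.1 and 44.5 RPKM in B2 and B3. In C3 the 2 listed plasma cell markers, Jchain and Xbp1, summed to 824 RPKM, against 15.9 and 17.1 RPKM in C1 and C2, and dividing cell markers to 24.3 RPKM, against 2.72 and 1.82 RPKM. The transcripts behind the sort did not follow the labels of C and B: mean Nr4a1 was 26.0 RPKM in C and 58.0 RPKM in B, although both are labelled intermediate in Nur77-GFP, and mean Ly6c1 was 64.3 RPKM in C, labelled Ly6C negative, and 43.9 RPKM in B, labelled positive. By these means C lay near A (35.5 RPKM of Nr4a1 and 64.6 RPKM of Ly6c1) and B near D (63.7 and 43.7 RPKM). Populations are therefore called by their labels, and results are given with and without A1, B1 and C3. In bulk RNA, fewer cells that carry a transcript and less of it per cell cannot be told apart.

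Lag3 and Cd200 were the most abundant of the 5 genes, with means over the 12 libraries of 9.57 and 9.20 RPKM. Pdcd1 averaged 5.70 RPKM, Lair1 2.55 RPKM and Cd160 1.28 RPKM. These means lay above 40.4%, 39.1%, 25.8%, 11.3% and 4.10% of the listed genes, so Lair1 and Cd160 are low transcripts here. Reads behind a value ran from 10 to 345 for Lag3, 48 to 376 for Cd200, 20 to 171 for Pdcd1, 52 to 120 for Lair1 and 11 to 47 for Cd160.

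Pdcd1 (Entrez 18566) was 8.61, 1.17 and 2.38 RPKM in A1, A2 and A3, 2.04, 9.35 and 10.7 RPKM in B1, B2 and B3, 1.77, 1.74 and 1.52 RPKM in C1, C2 and C3, and 8.54, 10.4 and 10.2 RPKM in D1, D2 and D3. The libraries fell into 2 sets of 6 with nothing between 2.38 RPKM (A3) and 8.54 RPKM (D1), a 3.59-fold gap. D, B2, B3 and A1 were above the gap, and C, A2, A3 and B1 below it.

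Lag3 (Entrez 16768) was 17.3, 2.02 and 0.791 RPKM in A1, A2 and A3, 0.985, 17.1 and 15.9 RPKM in B1, B2 and B3, 1.49, 1.53 and 3.00 RPKM in C1, C2 and C3, and 17.5, 20.5 and 16.6 RPKM in D1, D2 and D3. The same libraries lay above and below a gap, here of 5.28-fold between C3 and B3, and Lag3 spanned 26.0-fold over the 12 libraries, the widest range of the 5 genes. Its highest value in C was in C3, the library with high plasma cell markers, where 41 reads give a 95% exact Poisson interval of 2.15 to 4.07 RPKM. Such intervals cover counting error only.

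Cd200 (Entrez 17470) was 15.3, 3.54 and 2.78 RPKM in A1, A2 and A3, 3.44, 15.97 and 12.94 RPKM in B1, B2 and B3, 3.47, 3.15 and 4.29 RPKM in C1, C2 and C3, and 14.6, 15.1 and 15.9 RPKM in D1, D2 and D3. It split the libraries in the same way, with a 3.01-fold gap between C3 and B3. Within D the 3 mice differed little, at 15.2 ± 0.652 RPKM (mean ± SD, n = 3).

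Cd160 (Entrez 54215) was 2.02, 0.894 and 1.08 RPKM in A1, A2 and A3, 0.632, 1.23 and 1.515 RPKM in B1, B2 and B3, 0.710, 0.717 and 1.17 RPKM in C1, C2 and C3, and 2.14, 1.85 and 1.44 RPKM in D1, D2 and D3. No such gap was present, since its widest step between neighbouring values was 1.25-fold. All 3 values of D lay above those of C, yet D3 (95% interval 0.992 to 2.02 RPKM) and C3 (0.722 to 1.78 RPKM) could not be separated at this depth.

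Lair1 (Entrez 52855) was 2.30, 3.50 and 3.89 RPKM in A1, A2 and A3, 2.69, 1.81 and 1.97 RPKM in B1, B2 and B3, 3.61, 2.94 and 2.56 RPKM in C1, C2 and C3, and 1.705, 2.02 and 1.635 RPKM in D1, D2 and D3. It ran the other way from the first 3 genes, with D low and C high. A1 was the lowest library of A and B1 the highest of B.

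**Figure D1:**
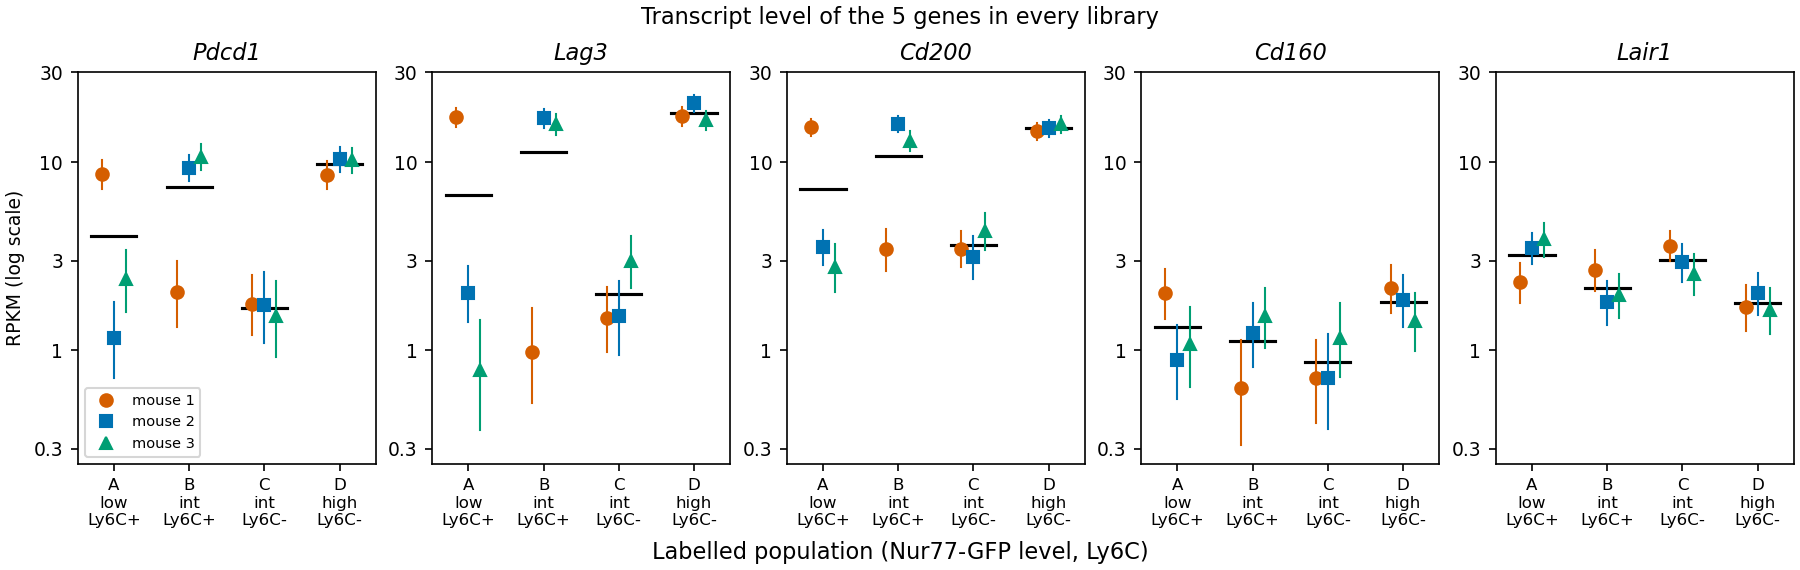
RPKM (log scale) of Pdcd1, Lag3, Cd200, Cd160 and Lair1 in each library, by labelled population from A (Nur77-GFP low) to D (high); points are mice, thin lines are 95% exact Poisson intervals and black bars are population means. Pdcd1, Lag3 and Cd200 in A1 (8.61, 17.3 and 15.3 RPKM) lie with D, and in B1 (2.04, 0.985 and 3.44 RPKM) with C.

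The makeup of the group differed between populations. In D the order was Lag3 at 18.2 ± 2.05 RPKM, Cd200 at 15.2 ± 0.652 RPKM, Pdcd1 at 9.72 ± 1.02 RPKM, and then Cd160 at 1.81 ± 0.351 and Lair1 at 1.79 ± 0.203 RPKM, which overlapped each other (mean ± SD, n = 3). In C it was Cd200 at 3.64 ± 0.591 RPKM, Lair1 at 3.04 ± 0.530 RPKM, Lag3 at 2.01 ± 0.863 RPKM, Pdcd1 at 1.68 ± 0.136 RPKM and Cd160 at 0.864 ± 0.261 RPKM (n = 3). There Cd200 overlapped Lair1, Lair1 overlapped Lag3, and Lag3 overlapped Pdcd1 in their ranges over mice. Summed, the 5 genes made 44.5 to 49.9 RPKM in D and 10.1 to 12.5 RPKM in C. In B the sum ran from 9.79 to 45.4 RPKM and in A from 10.9 to 45.6 RPKM, the extremes being mouse 1 at the low end of B and the high end of A. By population, Pdcd1, Lag3 and Cd200 each averaged highest in D, then B, then A, then C. B and A overlapped for all 3, as did D and B, and A and C, while for Pdcd1 all libraries of B lay above all of C. The place of A above C rested on A1 for Lag3 and Cd200. A2 and A3 held 2.02 and 0.791 RPKM of Lag3 and 3.54 and 2.78 RPKM of Cd200, beside means of 2.01 and 3.64 RPKM in C.

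Promoter sequences are shown for Pdcd1 and Cd200, which were high in the same 6 libraries, and for Lair1, which was low in D. They come from RefSeq (build GRCm38.p6) and hold 250 bases before and 50 after the annotated start, and 4 of the 5 genes matched, all but Lag3. Capitals mark matches, on either strand, to the core GGAAA bound by NFAT factors or to GCGNGGGCG, the site of Egr factors. The windows were also searched for AAAGGTCA, which Nr4a factors bind, and TGANTCA, the AP-1 site.
Pdcd1, chr1:94052504-94052803, minus strand: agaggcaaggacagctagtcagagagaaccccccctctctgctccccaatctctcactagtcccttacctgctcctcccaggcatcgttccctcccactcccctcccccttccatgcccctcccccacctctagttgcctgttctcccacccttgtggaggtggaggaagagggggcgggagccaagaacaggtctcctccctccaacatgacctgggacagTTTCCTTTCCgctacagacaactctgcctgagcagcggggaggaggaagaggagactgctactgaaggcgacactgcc
Cd200, chr16:45409004-45409303, minus strand: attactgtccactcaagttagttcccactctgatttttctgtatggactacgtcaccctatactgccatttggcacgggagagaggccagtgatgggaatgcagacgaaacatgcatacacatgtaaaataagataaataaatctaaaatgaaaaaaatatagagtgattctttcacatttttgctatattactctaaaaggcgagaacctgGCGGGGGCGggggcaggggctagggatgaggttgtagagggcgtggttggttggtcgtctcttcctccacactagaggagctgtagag
Lair1, chr7:4063155-4063454, minus strand: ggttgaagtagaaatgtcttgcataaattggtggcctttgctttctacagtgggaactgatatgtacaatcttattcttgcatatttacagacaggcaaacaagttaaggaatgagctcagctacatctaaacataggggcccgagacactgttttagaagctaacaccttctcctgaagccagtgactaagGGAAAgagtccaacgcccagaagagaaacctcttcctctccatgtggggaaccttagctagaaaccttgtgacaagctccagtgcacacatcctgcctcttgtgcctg

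The Pdcd1 window held 2 adjoining GGAAA matches on the strand opposite to the one printed, so that they appear as TTTCCTTTCC, from 28 bases before the start. The Lair1 window held 1 GGAAA match, on the strand printed, and the Cd200 window held 1 Egr match, from 38 bases before the start. Of the 2 annotated Cd160 windows, not printed here, 1 held a GGAAA match. GGAAA is common, being in 61.3% of all 32851 promoter windows of the same length and 59.0% of the 10321 windows of tested genes. The Egr letters were in 5.55% and 10.5% of those sets, the Nr4a letters in 1.51% and 1.01%, and the AP-1 letters in 7.81% and 4.55%. Neither AAAGGTCA nor TGANTCA was present in the 5 windows of Pdcd1, Cd200, Cd160 and Lair1, which concerns these letters in these windows only.

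The comparison of D with C holds the Ly6C label negative and goes by Nur77-GFP, high against intermediate, although Ly6c1 also differed, at 43.7 RPKM in D and 64.3 RPKM in C. Pdcd1, Lag3 and Cd200 stood 4.68-fold, 7.73-fold and 3.81-fold higher in D, Cd160 1.70-fold higher, and Lair1 at 0.650 of its level in C, as fitted on log2(RPKM + 0.5), a scale that understates changes of low genes. Within each mouse the raw ratio of D to C was 4.82, 5.98 and 6.72 for Pdcd1, 11.8, 13.4 and 5.54 for Lag3, and 4.199, 4.80 and 3.70 for Cd200. For Cd160 it was 3.01, 2.58 and 1.24, and for Lair1 0.473, 0.685 and 0.639. The direction was thus shared by 3 of 3 mice for each gene, and D and C did not overlap for any of the 5. Over all tested genes 24% did not overlap between D and C, 14.1% with D higher and 9.89% with D lower.

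Tested by limma in 1 fit of all 12 libraries, 0 of the 5 genes passed an adjusted p of 0.05 between D and C. The background was 0.00998% of tested genes. The 5 genes lay at an unadjusted p under 0.05, where 18.1% of genes did, and limma-voom on the recovered reads gave the same 2 counts, 0 and 5. The log2 fold changes were 2.23 ± 0.58 for Pdcd1 (SE, limma adjusted p = 0.106), 2.95 ± 0.95 for Lag3 (0.141), 1.93 ± 0.56 for Cd200 (0.116), 0.77 ± 0.25 for Cd160 (0.147) and -0.62 ± 0.18 for Lair1 (0.117). That fit takes its spread from all populations, A1 and B1 included.

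Fitted on the 6 libraries of D and C alone, 4 of the 5 genes rose in D and 1 fell, where limma called 4.8% of tested genes, 3.35% higher and 1.45% lower. Pdcd1 rose by 2.23 ± 0.11 on the log2 scale (adjusted p = 1.91e-05), Cd200 by 1.93 ± 0.11 (4.66e-05) and Lag3 by 2.95 ± 0.21 (0.000148), ranking 8, 13 and 27 by p among 10021 genes. The genes were chosen with earlier results of these data known, so these ranks are a description only. Cd160 rose by 0.77 ± 0.17 (adjusted p = 0.0457) and Lair1 fell by 0.62 ± 0.14 (0.0386), both near the threshold. With the mouse number as a block in the fit of those libraries, Pdcd1, Lag3, Cd200 and Lair1 kept their calls and Cd160 lost it (limma adjusted p = 0.0794), while 6.4% of tested genes passed. Leaving out C1, C2, D1, D2 or D3 in turn left 3 genes called, Pdcd1, Lag3 and Cd200, against 4.18%, 2.67%, 2.41%, 2.01% and 2.15% of tested genes. Leaving out C3 left 5, against 6.5%. A fit of the other 10 libraries, without A1 and B1, passed all 5 between D and C, with limma adjusted p from 5.72e-06 (Cd200) to 0.0161 (Cd160). In that fit 7.63% of tested genes were called, 5.05% with D higher and 2.58% with D lower, and A1 and B1 were set aside for their values. Without C3 as well, all 5 passed against 8.39% of tested genes, and the log2 fold change was 3.22 for Lag3 and 0.92 for Cd160.

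The comparison of B with A holds the Ly6C label positive and goes by Nur77-GFP, intermediate against low, and here mouse 1 ran against mice 2 and 3. The ratio of B to A for Lag3 was 0.0568 in mouse 1, 8.45 in mouse 2 and 20.04 in mouse 3. For Pdcd1 it was 0.237, 8.01 and 4.49, and for Cd200 0.225, 4.51 and 4.65. For Cd160 it was 0.313, 1.38 and 1.40, and for Lair1 1.17, 0.517 and 0.507. All 5 genes therefore had mouse 1 on one side of equality and mice 2 and 3 on the other, and none of the 5 separated B from A, where 29.2% of tested genes did. In the limma fit of 12 libraries 0 of 5 passed, against a background of 2.23% (0.569% higher and 1.66% lower in B), and 1 of 5, Lair1, had an unadjusted p under 0.05, as 23.1% of tested genes did. With the 6 libraries of B and A alone 0 of 5 passed, against 3.79% (0.609% higher and 3.18% lower). Fold changes on the log2 scale were 0.89 ± 0.58 for Pdcd1 (limma adjusted p = 0.369), 0.96 ± 0.95 for Lag3 (0.574), 0.69 ± 0.56 for Cd200 (0.481), -0.16 ± 0.25 for Cd160 (0.737) and -0.48 ± 0.18 for Lair1 (0.141). Without A1 and B1, which leaves 2 mice, Pdcd1 (2.26 ± 0.21), Lag3 (3.23 ± 0.31) and Cd200 (2.03 ± 0.15) passed as higher in B and Lair1 (-0.81 ± 0.15) as lower, where 6.66% and 4.26% of tested genes did, while Cd160 (0.33 ± 0.20, limma adjusted p = 0.308) did not. A1 and B1 are the libraries that ran against the others in these genes, and they were left out with their values known. Calls without them therefore describe the remaining libraries and do not test the direction, here and in the comparisons below. Without C3 as well the count was also 4, against 16.3% of tested genes.

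D and A differ in both sort labels, Nur77-GFP and Ly6C. In mouse 1 the ratio of D to A was near 1 for 4 of the genes, at 0.992 for Pdcd1, 1.01 for Lag3, 0.953 for Cd200 and 1.06 for Cd160. In mice 2 and 3 it was 8.91 and 4.29 for Pdcd1, 10.2 and 21.04 for Lag3, and 4.27 and 5.70 for Cd200. Lair1 was lower in D in 3 of 3 mice, at ratios of 0.742, 0.576 and 0.421, and was the 1 gene of the 5 for which D and A did not overlap, as for 25.8% of tested genes (11.7% with D lower). The limma fit of 12 libraries called 0 of the 5 genes (background 0.00998%), with 4 at an unadjusted p under 0.05 (background 19%), and Lair1 had the smallest p (log2 fold change -0.68 ± 0.18, adjusted p = 0.151). The 6 libraries of D and A alone gave 0 of 5, against 0.0299%. Without A1, 4 passed, against 3.61% of tested genes, and without A1 and B1 the 4 were Pdcd1 (2.22 ± 0.19), Lag3 (3.37 ± 0.28), Cd200 (2.11 ± 0.14) and Lair1 (-0.88 ± 0.14), against 6.08% of tested genes higher and 2.76% lower (8.84% in all). Cd160 (0.63 ± 0.18) had a limma adjusted p of 0.0584 there, and passed without C3 as well, when 5 of 5 did against 13.5% of tested genes.

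C and B share the label of intermediate Nur77-GFP and differ in that of Ly6C, negative against positive. Their transcripts went against both labels, with mean Nr4a1 of 26.0 RPKM in C and 58.0 RPKM in B and mean Ly6c1 of 64.3 RPKM in C and 43.9 RPKM in B, so C and B cannot be taken as differing in Ly6C alone. C was below B for the 3 most variable genes in mice 2 and 3, with ratios of C to B of 0.186 and 0.142 for Pdcd1, 0.0895 and 0.189 for Lag3, and 0.197 and 0.332 for Cd200. In mouse 1, whose B library was low, the ratios were 0.866, 1.51 and 1.01. Lair1 was higher in C in 3 of 3 mice, at ratios of 1.34, 1.63 and 1.30, with a log2 fold change of 0.42 ± 0.18 (limma adjusted p = 0.344). Pdcd1 was the 1 gene of the 5 whose libraries of C lay wholly apart from those of B, below them, as for 8.83% of tested genes. In the limma fit of 12 libraries 0 of 5 passed (background 0.00998%), with Pdcd1 at -1.59 ± 0.58 (adjusted p = 0.288), and 3 of 5 lay at an unadjusted p under 0.05 (background 13.4%). With the 6 libraries of C and B alone 0 of 5 and 0% of tested genes passed. Without A1 and B1, Pdcd1 (-2.27 ± 0.19), Lag3 (-2.81 ± 0.28) and Cd200 (-1.86 ± 0.14) passed as lower in C and Lair1 (0.56 ± 0.14) as higher, against 4.98% and 2.76% of tested genes (7.74% in all). Without C3 as well 5 passed, Cd160 among them as lower in C (-0.62 ± 0.16), against 8.71%.

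**Figure D2:**
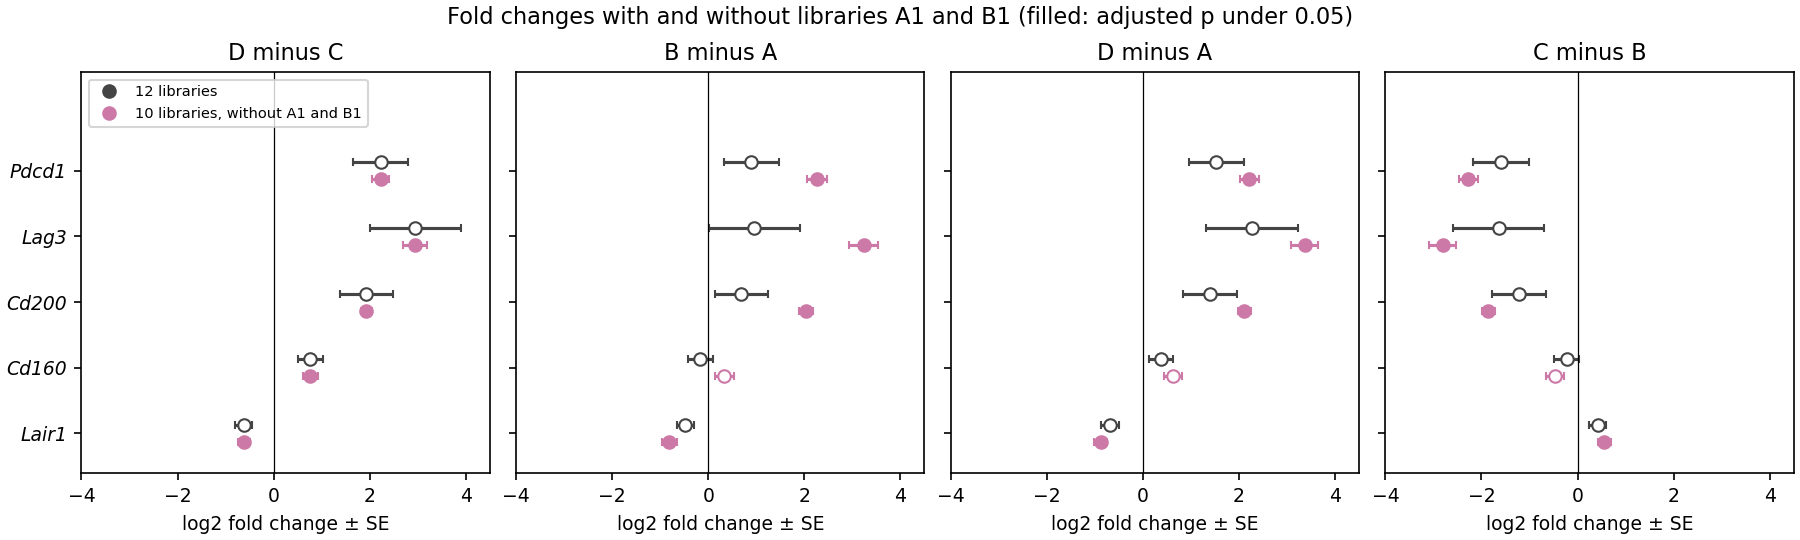
log2 fold changes (± SE, limma) of the 5 genes in 4 comparisons of labelled populations, in the fit of 12 libraries and without A1 and B1; filled points passed an adjusted p of 0.05. A1 and B1 belong to neither D nor C, so the D minus C estimates could not change between the fits. Their errors narrow because libraries chosen for their values were left out of the pooled spread. For B minus A the estimate of Lag3 is 0.96 with 12 libraries and 3.23 without A1 and B1.

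The comparisons share libraries, so they are not independent of each other. In each of them limma-voom on the recovered reads also called 0 of the 5 genes with 12 libraries. Over the 4 populations at once, the limma F test called 0 of the 5 genes with 12 libraries (background 0.00998%), with 4 of 5 at an unadjusted p under 0.05 (background 21.7%), and 5 of 5 without A1 and B1 (background 9.63%). The step from C to D was also tested against the step from A to B. In limma 0 of 5 genes and 0% of tested genes differed between these steps, with 1 of 5 genes, Cd160, at an unadjusted p under 0.05, where 15% of genes lay. The difference of steps was 0.93 ± 0.36 for Cd160 (adjusted p = 0.271), and 1.99 ± 1.34 for Lag3 (0.491), whose interval is wide.

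Nr4a1 transcript sorted the libraries like Pdcd1, Lag3 and Cd200. The 6 libraries above the gap in those genes had 57.7 to 73.3 RPKM of Nr4a1 and the 6 below it 22.9 to 36.0 RPKM. Within D and C, Nr4a1 was 58.7, 64.7 and 67.8 RPKM in D and 26.3, 28.3 and 23.4 RPKM in C. B1 had the highest Nr4a1 of the lower set, at 36.0 RPKM, but not the highest Pdcd1, Lag3 or Cd200. Since the libraries form separate sets, no correlation with Nr4a1 is given. Ly6c1, which encodes part of Ly6C, averaged 43.7 ± 5.10 RPKM in D and 64.3 ± 4.36 RPKM in C, and 43.9 ± 6.53 RPKM in B and 64.6 ± 7.40 RPKM in A (SD, n = 3), so it was as high in a Ly6C negative population as in a Ly6C positive one.

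**Figure D3:**
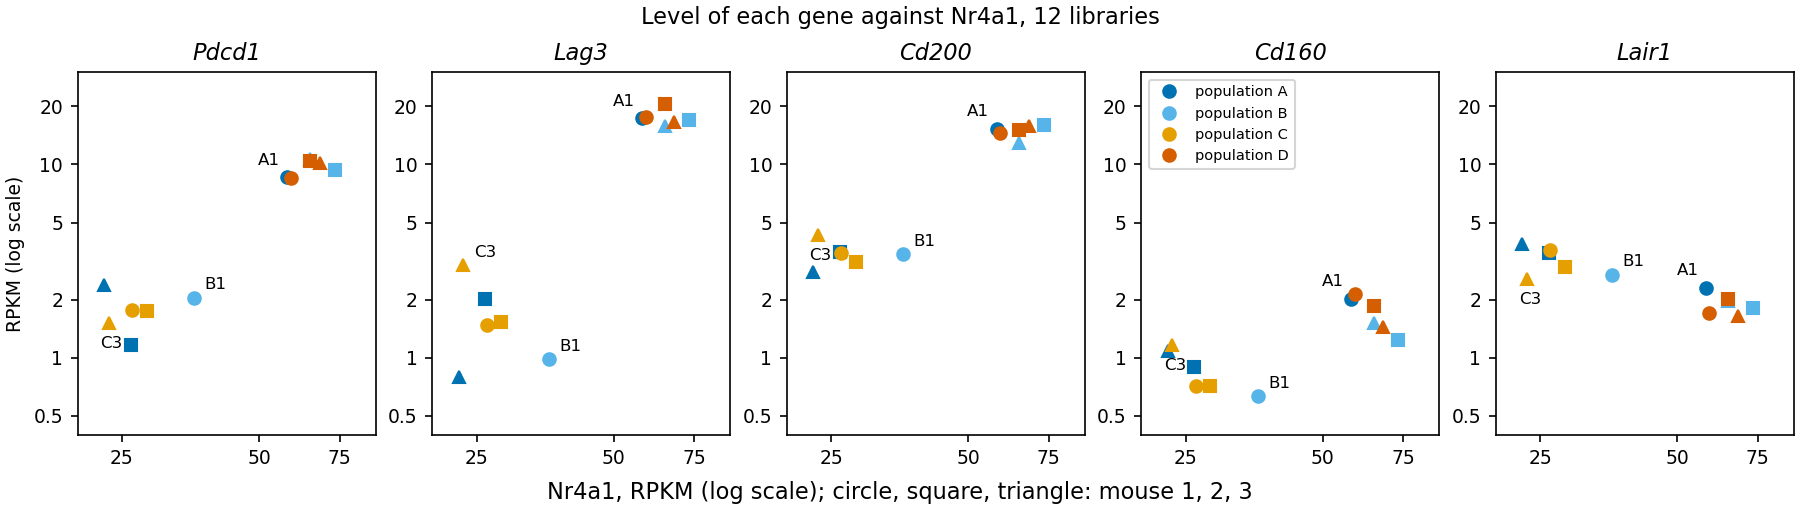
RPKM of each gene against RPKM of Nr4a1 (both log scales) in 12 libraries, coloured by labelled population, with shapes for mice. Pdcd1, Lag3 and Cd200 form 2 separate sets of 6 libraries, with A1 in the upper and B1 and C3 in the lower set, while Cd160 and Lair1 span 3.39-fold and 2.38-fold.

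Markers of other cell states differed along with the first 3 genes. The regulatory T cell markers, 5 of 5 listed, summed to 54.2 to 63.0 RPKM in D and 24.9 to 28.5 RPKM in C, and to 28.8 to 59.4 RPKM in B and 25.5 to 63.2 RPKM in A. Foxp3, which the sort selected against by its reporter, averaged 3.67 ± 0.381 RPKM in D and 1.36 ± 0.0895 RPKM in C (SD, n = 3). The T follicular helper markers, 4 of 5 listed, summed to 42.8 to 46.7 RPKM in D and 17.7 to 18.1 RPKM in C. Of the memory or effector CD4 T cell markers, 2 of 5 were listed, Cd44 and Il2rb, and they summed to 37.3 to 41.9 RPKM in D and 15.5 to 19.8 RPKM in C. Cd44 alone, the antigen gated low in the sort, was 6.41 to 7.37 RPKM in D and 7.08 to 12.8 RPKM in C. Both regulatory and follicular helper T cells are known to carry PD-1, and the part of such cells in these results was not tested. The myeloid markers, 3 of 5 listed, summed to 24.3 to 26.4 RPKM in D and 24.6 to 51.5 RPKM in C, the highest value being C3. Il7r, which encodes the interleukin-7 receptor of naive T cells, was 77.5 to 86.2 RPKM in D and 122.8 to 148.5 RPKM in C, and passed as lower in the fit of those 6 libraries (log2 fold change -0.76 ± 0.08, limma adjusted p = 0.000963). Cd8b1, the 1 of 2 CD8 T cell markers listed, passed there as lower too (-0.44 ± 0.09, adjusted p = 0.0354), at 10.2 to 11.2 RPKM in D and 12.7 to 15.96 RPKM in C. With 12 libraries neither passed (adjusted p = 0.106 for each). The erythroid marker Hbb-bs set other libraries apart, at 4.78 to 14.0 RPKM in A1, B1, C2 and D2 and 79.1 to 110.6 RPKM in the other 8. The part of these markers in the results was not tested. Markers of NK cells (0 of 7), gamma delta T cells (0 of 4) and dendritic cells (0 of 4) were not among the listed genes, nor were 5 of 6 B cell markers. Cd79a, the B cell marker listed, was 37.4 RPKM in C3 and between 3.57 and 8.80 RPKM elsewhere.

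Lag3 lies between Cd4 and Ptms, with no other annotated gene between them and no overlap of their annotated ranges in RefSeq GRCm38.p6. Ptms, which encodes parathymosin, a small acidic nuclear protein, was the tested gene whose pattern over the 12 libraries was most like that of Lag3 (Pearson's r = 0.991 on log2(RPKM + 0.5)). Ptms was 41.0, 47.4 and 43.4 RPKM in D1, D2 and D3, and 19.3, 20.2 and 26.2 RPKM in C1, C2 and C3. It was 19.4, 44.0 and 42.1 RPKM in B1, B2 and B3, and 38.1, 21.4 and 17.7 RPKM in A1, A2 and A3. C3 was the highest library of C for Ptms as for Lag3. In D against C, Ptms had a log2 difference of 1.00 ± 0.30 in the fit of 12 libraries (limma adjusted p = 0.125) and passed with the 6 libraries alone (1.00 ± 0.11, adjusted p = 0.0015). Cd4, on the other side of Lag3, had a log2 difference of -0.09 ± 0.05 (limma adjusted p = 0.391 with those 6 libraries). Over the 12 libraries Cd4 ran opposite to Lag3 (r = -0.822), within a 1.12-fold range. The nearest listed genes beside the other members did not pass in either fit between D and C. They were D2hgdh and Fam174a for Pdcd1, Btla, itself an inhibitory receptor gene, and Abhd10 for Cd200, Rnf115 and Pdzk1 for Cd160, and Rps9 and Leng8 for Lair1, with log2 differences from -0.18 (Pdzk1) to 0.11 (Fam174a). For Pdcd1, Cd200 and Lair1 these listed genes were not the adjacent ones. Between them and the member lay 6 and 6, 2 and 10, and 12 and 4 unlisted annotated genes, against 0 and 0 for Cd160. The neighbours were looked at after the likeness of Ptms was seen.

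**Figure D4:**
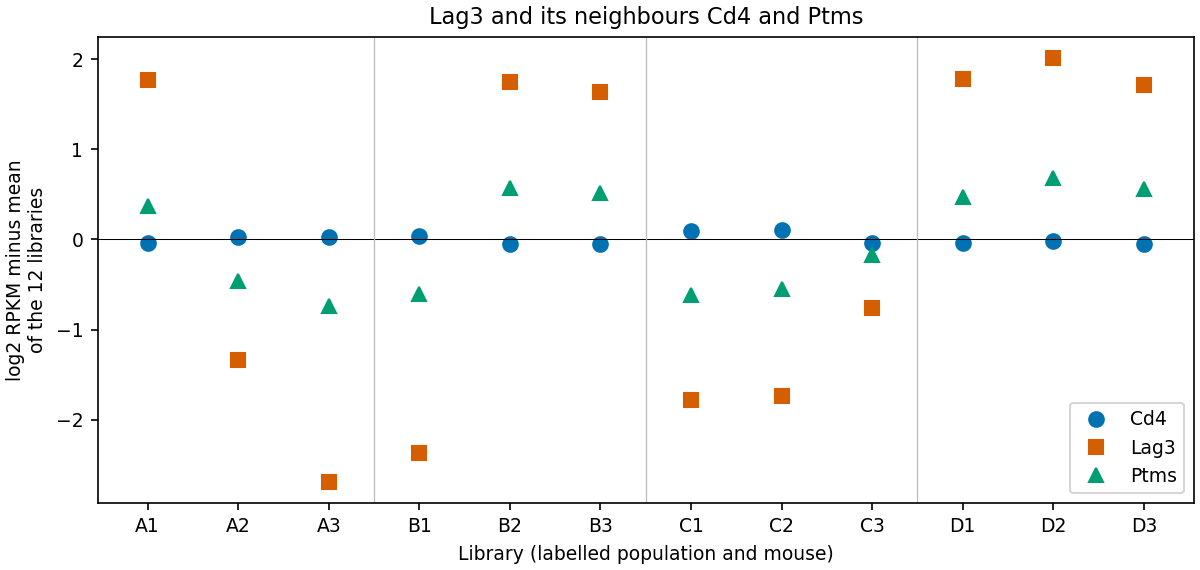
log2 RPKM of Lag3 and of its neighbours Cd4 and Ptms, each minus its own mean over the 12 libraries, by library. Ptms is above its mean in the same 6 libraries as Lag3 (A1, B2, B3, D1, D2 and D3) with a smaller span, and Cd4 stays near its mean, between 223.5 and 249.5 RPKM.

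Likeness to the other members was measured in the same way, as a description over 12 libraries that form 2 sets and share mice. For Pdcd1 the closest genes were Ntn1 (r = 0.991), which encodes the guidance protein netrin-1, Foxp3 (0.989) and Lrmp (0.988). For Lag3 they were Ptms, Il2ra (0.988), which encodes a chain of the interleukin-2 receptor, and Endod1 (0.986). For Cd200 they were Bcl6 (0.992), the transcription factor of follicular helper cells, Phactr2 (0.991) and Itga9 (0.991), an integrin chain. Cd160 had a looser match in Trip4 (0.948), Grk5 (0.947), a G protein-coupled receptor kinase, and Cxxc5 (0.940). Lair1 was closest to Tgtp1 (0.966) and Tgtp2 (0.961), interferon-induced GTPases that are close copies of each other, so that counting may split their reads, and to Grap2 (0.964), an adaptor of T cell receptor signalling. Among the members, Lag3 and Cd200 were closest (0.990), followed by Pdcd1 and Cd200 (0.962) and Pdcd1 and Lag3 (0.935), and Lair1 ran opposite to Cd200 (-0.905).

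The wider pathway was counted from lists of genes chosen with earlier results of these data known. Among other inhibitory receptors 10 of 18 were listed, and between D and C in the fit of 6 libraries 4 passed as higher and 0 as lower, against 3.35% and 1.45% of tested genes. These were Cd5 (log2 fold change 0.81 ± 0.06) and Cd6 (0.72 ± 0.07), scavenger receptors that dampen T cell receptor signals, Ctla4 (1.60 ± 0.225), which competes with Cd28 for its ligands, and Slamf6 (0.48 ± 0.07), a self-binding receptor. The list's median log2 difference was 0.35, beside 0.013 for all tested genes. Tigit had 0.95 ± 0.33, Btla 0.05 ± 0.09 and Vsir -0.20 ± 0.05, none of which passed. With 12 libraries 0 of the 10 passed between D and C, and between B and A 2 passed, Cd6 (0.59 ± 0.13, limma adjusted p = 0.0463) and Cd5 (0.61 ± 0.14, 0.0487), against 0.569% of tested genes higher in B. Both lost the call with the 6 libraries of B and A alone (adjusted p = 0.0699 for Cd6 and 0.0926 for Cd5) and with the mouse number as a block (0.0711 and 0.0807), when 2 of all tested genes passed. Without A1 and B1, Cd96 (0.23 ± 0.06) joined the 4 as higher in D than in C, and Vsir passed as lower.

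Of the ligands and binding partners of the 5 proteins 4 of 10 were listed. Pdcd1lg2, which encodes a ligand of PD-1, rose by 1.08 ± 0.13 in D against C in the fit of 6 libraries (limma adjusted p = 0.00219). It was a low transcript, at 1.205, 1.35 and 1.49 RPKM in D1, D2 and D3. In C1, C2 and C3 it was 0.349, 0.346 and 0.425 RPKM, below the 0.5 added before taking logs. Cd274, which encodes the other PD-1 ligand, was between 21.2 and 23.4 RPKM in all 12 libraries and had a log2 difference of 0.02 ± 0.06. Tnfrsf14, the partner of CD160, had 0.16 ± 0.05, and Cd200r1, the receptor of CD200, -0.07 ± 0.10, neither of which passed. Of 9 mediators of inhibitory signals 2 passed, Rasa1 (0.49 ± 0.06), which restrains Ras, and Sh2d1a (0.44 ± 0.08), the adaptor of SLAM family receptors. The phosphatase genes Ptpn6 (-0.0020 ± 0.0773) and Ptpn11 (0.23 ± 0.07) did not pass. Adam10 (0.08 ± 0.07) and Adam17 (0.03 ± 0.08), whose products shed LAG-3, did not pass either. With 12 libraries 0 of the genes in these 3 lists passed between D and C, against 0.00998% of tested genes. Without A1 and B1, 2 mediators passed as higher in D and 1 as lower, 1 ligand or partner passed as higher, and 0 of the proteases passed. The background there was 5.05% of tested genes higher and 2.58% lower.

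Of 20 transcription factors linked to Pdcd1 and Lag3, 19 were listed and 10 passed as higher in D than in C in the fit of 6 libraries, with 0 lower, against 3.35% and 1.45% of tested genes, and the list's median log2 difference was 0.54, beside 0.013 for all tested genes. The 4 with the smallest p were Eomes (3.56 ± 0.13), a T-box factor, Bcl6 (1.45 ± 0.07), Nr4a1 (1.28 ± 0.08) and Nr4a3 (1.46 ± 0.11). The list was chosen knowing that several of its members had moved, and Nr4a1 is the gene behind the sort. With 12 libraries 0 of the 19 passed in any of the 4 comparisons in limma. Without A1 and B1, 10 passed as higher in D than in C (5.05% of tested genes), 10 as higher in B than in A (6.66%), 10 as higher in D than in A (6.08%) and 10 as lower in C than in B (4.98%), with 0 in the other direction each time.

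**Figure D5:**
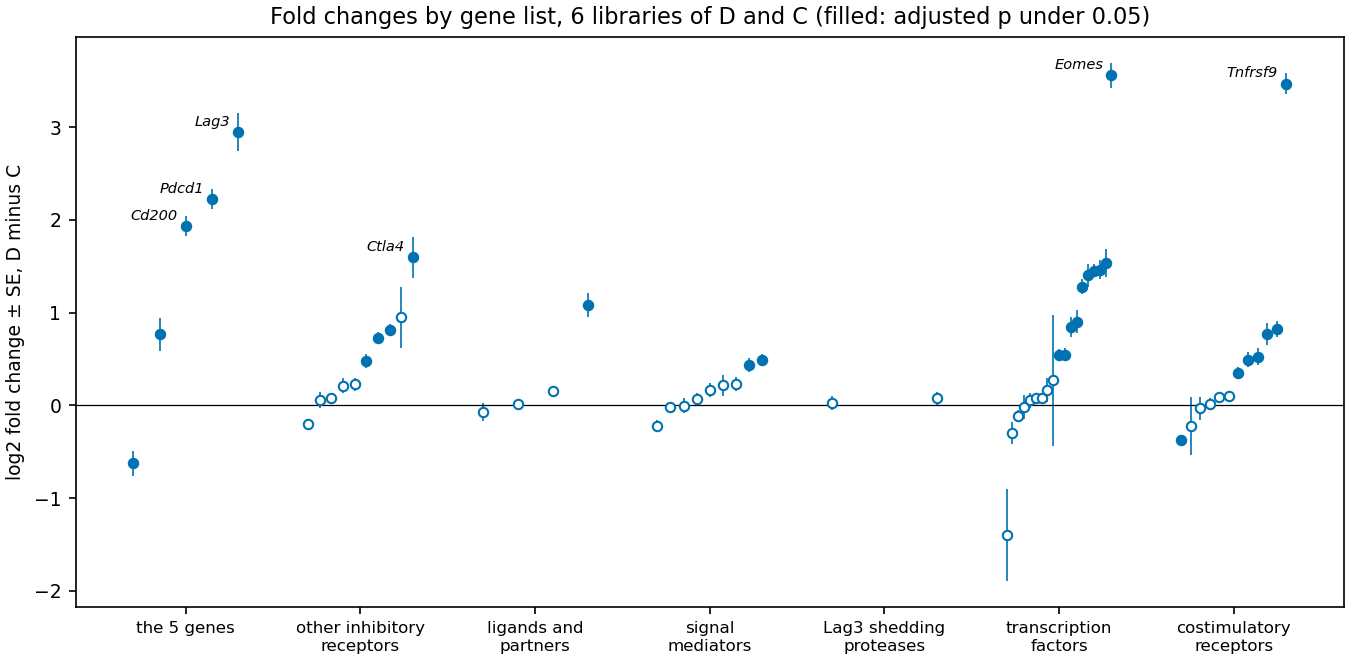
log2 fold changes (± SE) between D and C in the limma fit of those 6 libraries, for the 5 genes and 6 lists of related genes, with filled points past an adjusted p of 0.05. Lag3 (2.95), Pdcd1 (2.23) and Cd200 (1.93) lie above the list of other inhibitory receptors, the highest of which is Ctla4 (1.60). Cd160 (0.77) and Lair1 (-0.62) lie below Ctla4.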

How the data were processed

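RNA of 12 libraries was sequenced, 4 sorted populations from each of 3 mice. Per the labels' protocols, RNA of sorted, lysed cells was isolated by Quick-RNA MicroPrep, and cDNA and libraries followed the SMART-seq v4 and NexteraXT kits. The submitters' processing notes name STAR and the builds mm9 and mm10, without version or role, and the counting tool, annotation and strand use are not named in these sources. The authors deposited RPKM values for 10073 genes, per the file headers, with gene lengths. RPKM times length gave whole reads within 0.1 read for 100.0% of values examined in each library, from which depth was recovered, and the recovery was tested on simulated data.

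Genes whose mean reached 0.5 RPKM were tested with limma 3.58.1 (R 4.3.3, mean-variance trend, no block) on log2(RPKM + 0.5), and p-values were adjusted by Benjamini-Hochberg over all tested genes at a threshold of 0.05. The step was tested on simulated data. Alternatives were other pseudocounts, filters and scalings, a replicate block, fits of 6 libraries alone, limma-voom on recovered reads, removal of trends in GC content and length (GENCODE M21, 98.3% of tested genes) and leaving out libraries. The members, lists and libraries left out were chosen with earlier results of these data known. Named genes were the 5 members, up to 4 past the threshold per list by smallest p or up to 2 given as values, and the 3 closest to each member by Pearson's r, leaving out clone and predicted-gene names. Further genes of the lists, the neighbours and single markers were named after their values were seen.

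The mouse numbers of the labels state which libraries share an animal. Same-numbered libraries had a mean correlation of -0.072 in their deviations from population means (18 pairs, range -0.613 to 0.379). Libraries of different numbers averaged 0.032 (36 pairs, range -0.422 to 0.506), so same-numbered libraries were not more alike by this measure. Ratios within a mouse and counts of mice therefore rest on the mouse numbers of the labels alone. P-values of the fit of 12 libraries rest on the spread between libraries with the same label, pooled over the populations. That fit has no term for the mouse and treats libraries of the same mouse as independent. At most 3 mice stood behind a population, and fewer where a library of it was left out. The remaining values and plots were made in Python (3.11.15, scipy 1.17.1, matplotlib 3.10.9).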

Additional observations from a re-analysis of the deposited data

How the results depend on the processing

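The counts of the 5 genes called depended on A1 and B1. With 12 libraries 0 passed in every comparison in limma, also with other pseudocounts, filters, scalings and moderation, with limma-voom on recovered reads, with the GC and length trends removed, and with the replicate block (0 called). With 1 library left out the counts ran from 0 to 3 for D minus C (3 without A1 or B1), 0 to 4 for D minus A (4 without A1), 0 to 1 for C minus B (1 without B1) and 0 to 2 over any population (2 without A1, 1 without B1). Over these fits the share of all tested genes called ran from 0.00998% to 3.97%, 0.00998% to 3.61%, 0% to 3.85% and 0.00998% to 4%, and it was 2.87% without A1 and 3.97% without B1 for D minus C. Without A1 and B1 the counts were 5 for D minus C, 4 for B minus A, 4 for D minus A, 4 for C minus B and 5 over any population. In the same order 7.63%, 10.9%, 8.84%, 7.74% and 9.63% of tested genes were called. Without A1, B1 and C3 the counts were 5, 4, 5, 5 and 5, against 8.39%, 16.3%, 13.5%, 8.71% and 13.1% of tested genes. The 6 libraries of D and C alone gave 5 called, 3 to 5 with 1 of them left out, and 4 with the replicate block, fits of which the leave-one-out and block versions were chosen after seeing the data. The share of all tested genes called was 4.8%, 2.01% to 6.5%, and 6.4% in those fits. With 6 libraries alone the replicate block changed no other call.

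Directions reversed only in differences that did not pass. The B minus A value of Cd160 was -0.16 with 12 libraries, ran from -0.338 to 0.091 with 1 library left out (0.091 without A1, 0.078 without B1) and was 0.332 without A1 and B1, with or without C3. The difference of steps was -0.033, -0.282, -0.099 and 0.188 for Pdcd1, Lag3, Cd200 and Lair1 without A1 and B1, and -0.086, -0.015 and 0.089 for Pdcd1, Lag3 and Lair1 without C3 as well. For Lair1 it ran from -0.275 to 0.049 with 1 library left out. Over all tested genes the counts called were 1 for D minus C with 12 libraries, 481 with 6 and 765 without A1 and B1, and 223, 380 and 1094 for B minus A (2 with 12 libraries and the replicate block). For D minus A they were 1, 3 and 886, and for C minus B 1, 0 and 776. Cd160 and Lair1 gave no value under the filter of 5 RPKM. Between 11 and 47 reads lay behind a value of Cd160, its calls also turned on A1, B1 and C3, and its B minus A direction on A1 and B1.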

Other observations

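Costimulatory receptors, which strengthen T cell responses, were counted as a counterpart to the inhibitory ones, all 12 of the list being present. In the limma fit of the 6 libraries of D and C, 6 passed as higher in D and 1 as lower, against 3.35% and 1.45% of tested genes, with a median log2 difference of 0.22 beside 0.013 for all tested genes. Tnfrsf9, which encodes 4-1BB, an activation-induced receptor, was 24.3, 19.1 and 23.2 RPKM in D1, D2 and D3, and 1.59, 1.38 and 1.65 RPKM in C1, C2 and C3. Its log2 fold change of 3.47 ± 0.11 lay above the 2.95 ± 0.21 of Lag3. Both genes were high in A1, at 20.4 RPKM for Tnfrsf9 and 17.3 RPKM for Lag3, and low in B1, at 1.43 and 0.985 RPKM. Tnfrsf4 (0.82 ± 0.08), which encodes OX40, and Icos (0.77 ± 0.12) also passed as higher, and Cd40lg, the ligand of CD40, passed as lower (-0.37 ± 0.05). With 12 libraries 0 of the 12 passed between D and C in limma.

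Irf4, a factor of activated lymphocytes and plasma cells, was 34.3 RPKM in C3, against 4.07 and 3.42 RPKM in C1 and C2 and 8.80 to 10.9 RPKM in D.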
